A study of Danio rerio with 12 samples.

Results

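The gfi1 family of zebrafish, gfi1aa, gfi1ab and gfi1b, encodes zinc-finger repressors of blood and sensory development. Its members were taken as every entry of the deposited start-site table whose gene name is 1 of these 3. Each gene had 1 entry and 1 window, so 3 of 15674 distinct windows were members, and all 3 were among the 15431 windows with enough signal to be tested. The assay was ATAC-seq, in which the Tn5 transposase cuts and tags open chromatin, on deyolked whole embryos at 32 hours post fertilization. The tested embryos were homozygous mutants for supt16h (supt16h-/-, labelled MUT), and they were set against embryos labelled wildtype siblings (WT). The labels name neither the mutant allele nor any further allele or treatment in either group. The series text mentions 40 embryos without saying whether each library pooled that many, and 50000 cells went into each library. Each group had 3 biological replicates, each sequenced as 2 technical repeats, which makes 12 libraries.

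Gfi1 proteins bind DNA through zinc fingers at their C-terminal end. A short N-terminal SNAG domain recruits the histone demethylase Lsd1 (Kdm1a) with CoREST and histone deacetylases, so that bound genes are turned down. In the mouse, Gfi1 and Gfi1b silence the endothelial program as blood stem cells leave the vessel wall, Gfi1b is needed for red cells and platelets, and Gfi1 for neutrophils and for hair cells of the inner ear. Zebrafish have a pair of Gfi1 genes, gfi1aa and gfi1ab, which arose by duplication. gfi1aa and gfi1b are known from red cells and blood-forming endothelium, and gfi1ab from hair cells and the retina. The mutated gene, supt16h, encodes the large subunit of FACT, a chaperone that takes nucleosomes apart and puts them back as polymerases pass.

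Values are normalized log2 signals over a window of 4000 bp centred on the annotated start. All windows have the same width, and their levels are set beside each other as they stand. No other difference between windows was corrected for here. The windows cover promoters and their surroundings only. Coordinates are in GRCz10 as the table gives them. The table holds no counts, so the depth behind a value is unknown. The 12 library medians lay between 7.32 and 7.40. In whole embryos, fewer cells of a type and less open chromatin per cell cannot be told apart. At each of the 2976 windows called in the authors' deposited table, its log2 fold change has the sign of wildtype minus mutant when set against the columns of single libraries. Every direction given here rests on how those columns are named.

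Of the 3 members, gfi1b and gfi1ab passed the test, in opposite directions. On the scale of the library columns, whose transformation is not named, the gfi1b window was more open in mutants, by 1.23-fold. The gfi1ab window was less open, by 1.19-fold (fold change 0.843), and the gfi1aa window did not pass the test. The authors' deposited fold changes, given below, are larger for all 3. Of the members, 1 was called higher and 1 lower in limma at an adjusted p of 0.05, where 11.6% of all tested windows were called, 8.02% higher and 3.58% lower. A family of 3 is too small for its count to be read against these shares.

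gfi1b, known from blood as gfi1aa is, lies on the minus strand of chromosome 21 (17257374 to 17261374, NM_001271841). In the mutants the 2 technical repeats read 7.87 and 7.62 in replicate 1, 7.88 and 7.56 in replicate 2, and 7.65 and 7.73 in replicate 3. In the siblings they read 7.56 and 7.41 in replicate 1, 7.34 and 7.42 in replicate 2, and 7.43 and 7.35 in replicate 3. Replicate means did not overlap, at 7.75, 7.72 and 7.69 in mutants and 7.49, 7.38 and 7.39 in siblings. Single libraries overlapped narrowly (a gap of -0.00583), because the lowest mutant library, at 7.56, lay just under the highest sibling library, also at 7.56. Mutant replicate means lay wholly above those of siblings at 15.5% of tested windows.

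The mean of gfi1b was 7.72 ± 0.03 in mutants and 7.42 ± 0.06 in siblings (SD, n = 3 each). Mutants were higher by 0.30 ± 0.07 (SE, limma adjusted p = 0.0117), and the 95% interval ran between 0.15 and 0.45. Only 6.46% of tested windows had a higher difference. Among the 3745 windows within 0.5 of its mean log2 level, 162 or 4.33% were called higher. Its difference was 0.36 from the first technical repeats alone and 0.24 from the second repeats alone, and the second gave no call (adjusted p = 0.187). The call was also lost without wildtype replicate 2 (adjusted p = 0.0614) or 3 (0.0555), and with the slope of each replicate's values on the all-replicate mean as a covariate (0.38, adjusted p = 0.0774).

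gfi1ab, the sensory member, lies on the minus strand of chromosome 6 (29014895 to 29018895, NM_201338). gfi1b is an older synonym of this gene in RefSeq, so the accession and not the symbol separates the pair. In the mutants the technical repeats read 6.92 and 6.79 in replicate 1, 6.77 and 6.88 in replicate 2, and 6.70 and 6.79 in replicate 3. In the siblings they read 7.09 and 7.09 in replicate 1, 6.94 and 7.09 in replicate 2, and 7.09 and 7.03 in replicate 3. All 6 mutant libraries lay below all 6 sibling libraries, with a gap of 0.014 between the nearest of them, which was the case at 2.97% of tested windows. Replicate means, at 6.86, 6.83 and 6.74 in mutants and 7.09, 7.02 and 7.06 in siblings, lay 0.16 apart at their nearest. Mutant means lay wholly below sibling means at 14.0% of tested windows.

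The mean of gfi1ab was 6.81 ± 0.06 in mutants and 7.05 ± 0.04 in siblings (SD, n = 3 each). The difference was -0.25 ± 0.07 (SE, limma adjusted p = 0.0334), and its 95% interval ran between -0.40 and -0.09. A lower difference was found at 3.82% of tested windows. Of the 3462 windows within 0.5 of its level, 205 or 5.92% were called lower. The direction was the same in all 18 other fits, but 11 of them gave no call. These were the fits without mutant replicates 2 or 3 (adjusted p = 0.055 and 0.141) or wildtype replicates 1, 2 or 3 (0.125, 0.0667 and 0.0986), those with 3 other scalings, those from 1 technical repeat, and the slope covariate (-0.17, adjusted p = 0.443).

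gfi1aa lies on the plus strand of chromosome 2 (10981145 to 10985145, NM_001020776). In the mutants the technical repeats read 6.06 and 6.03 in replicate 1, 6.25 and 6.18 in replicate 2, and 5.95 and 5.94 in replicate 3. In the siblings they read 6.14 and 6.14 in replicate 1, 6.14 and 6.24 in replicate 2, and 6.16 and 6.18 in replicate 3. The groups overlapped, since mutant replicate 2 was the highest of all 6 replicates and mutant replicates 1 and 3 were the lowest. The mean was 6.07 ± 0.14 in mutants and 6.17 ± 0.02 in siblings (SD, n = 3 each). The difference was -0.10 ± 0.08 (SE, limma adjusted p = 0.499), and its 95% interval ran between -0.27 and 0.07. A larger difference in either direction was present at 49.6% of tested windows. That interval also holds the -0.25 of gfi1ab, so the duplicates are not shown to act differently by these tests. Without mutant replicate 2 the difference was -0.17, and without mutant replicate 3 it was -0.04, neither called (adjusted p = 0.247 and 0.874).

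**Figure D1:**
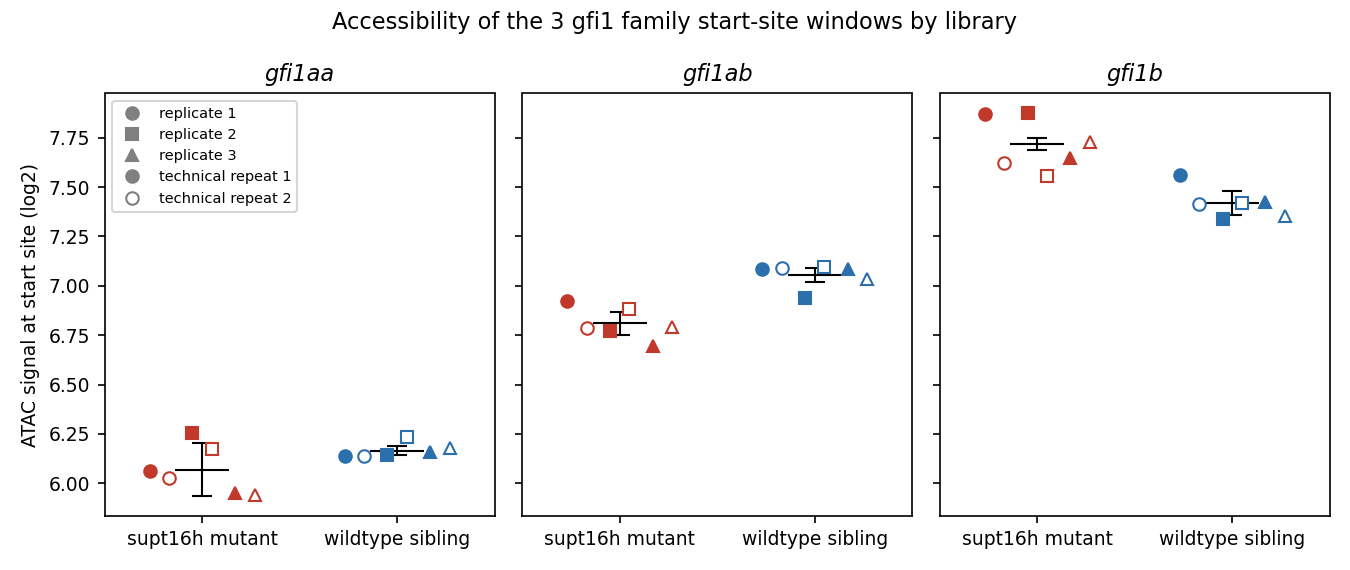
Normalized log2 ATAC signal (vertical axis) of each of the 12 libraries at the 3 start-site windows, supt16h mutants left of wildtype siblings. Shapes mark the biological replicate, filled and open points the technical repeats, and bars the mean ± SD of 3 replicate means, with gfi1b higher in mutants (7.72 against 7.42), gfi1ab lower (6.81 against 7.05) and gfi1aa overlapping.

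The order of the levels was gfi1b, gfi1ab, gfi1aa in every one of the 12 libraries, with no overlap between neighbours in that order. On the log2 scale, the level of gfi1b was above that of 57.9% of tested windows in mutants and 50.3% in siblings. gfi1ab stood above 36.8% in mutants and 41.3% in siblings, and gfi1aa above 21.6% and 22.7%. Neither Gfi1 duplicate reached the median window.

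**Figure D2:**
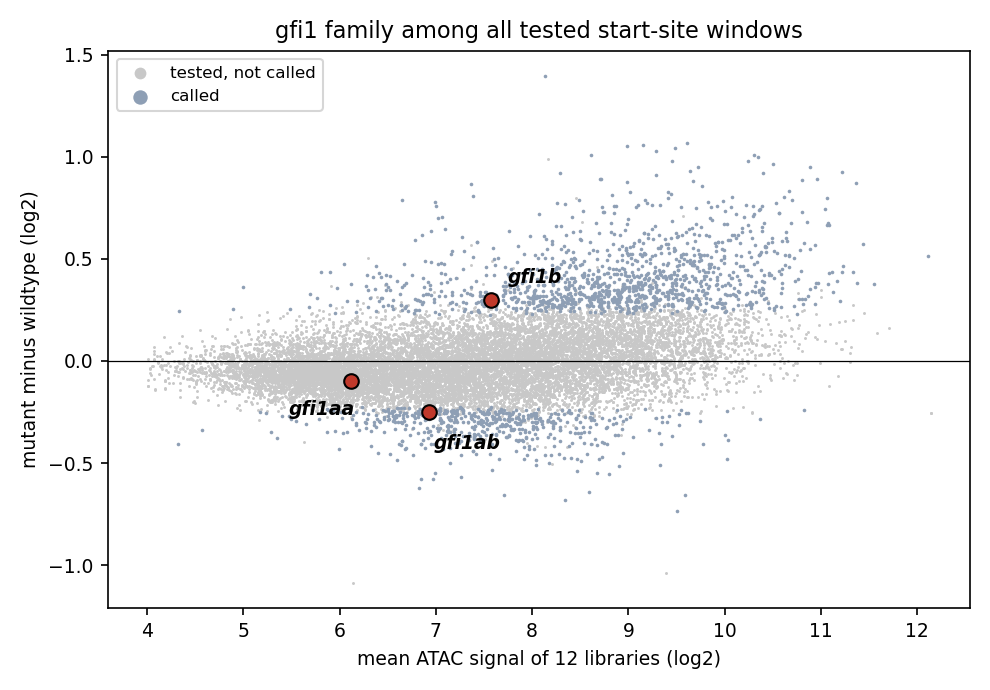
Difference of log2 signal, mutant minus wildtype (vertical axis), against the mean log2 signal of the 12 libraries (horizontal axis) for the 15431 tested windows, with called windows in blue-grey. gfi1b (0.30) lies above 0 and gfi1ab (-0.25) below 0 among called windows, and gfi1aa (-0.10) among windows not called.

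Paralogs were compared directly through the log2 distance between their windows within each replicate, which cancels any shift of a whole library. gfi1b stood above gfi1ab by 0.89, 0.89 and 0.94 in the mutants and by 0.40, 0.36 and 0.33 in the siblings. The distance was therefore 0.54 wider in mutants, at 0.91 ± 0.03 against 0.36 ± 0.03 (SD, n = 3 each). Between gfi1b and gfi1aa it was 1.65 ± 0.13 in mutants and 1.25 ± 0.08 in siblings, which is 0.40 wider. The distance between the duplicates gfi1ab and gfi1aa was 0.74 ± 0.11 in mutants and 0.89 ± 0.06 in siblings, a change of -0.15. This last change rested partly on mutant replicate 2, without which it was -0.08. Each pair had a two-sided exact permutation p of 0.1, the smallest that 3 against 3 allows, without adjustment over the 3 pairs. After quantile or cyclic loess scaling the exact permutation p of the gfi1ab and gfi1aa pair was 0.2, with changes of -0.16 and -0.15, while that of the pairs with gfi1b was still 0.1. These tests left out the pairing by replicate number. With it, an exact sign-flip permutation gave p = 0.25 for each of the 3 distances, the smallest that 3 replicate pairs allow.

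In the authors' deposited table the log2 fold changes, with their sign turned to match the library columns, were 0.47 for gfi1b (adjusted p = 0.0009), -0.44 for gfi1ab (0.00179) and -0.19 for gfi1aa (0.415). That table calls 19.3% of the tested windows. Its fold changes are larger than the differences of the library columns for all 3 members, so the sizes given here depend on which of the scales is used.

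The chromosomal surroundings of the duplicates match. gfi1aa and gfi1ab each lie between a copy of rpl5, a ribosomal protein gene, on their upstream side and a copy of glmn, which encodes glomulin, on their downstream side. Around gfi1aa, rpl5a starts 63.1 kb upstream and glmna 54.4 kb downstream. Around gfi1ab, rpl5b starts 79.2 kb upstream and glmnb 26.7 kb downstream. None of the 8 other windows within 100 kb of a member was called, where 11.6% of all tested windows were called. So few windows cannot be read against that share. The upstream rpl5a and rpl5b differed by 0.17 ± 0.07 and 0.08 ± 0.08 (SE, limma adjusted p = 0.175 and 0.599). Downstream, glmna differed by 0.00 ± 0.08 (adjusted p = 0.98) and glmnb by -0.12 ± 0.07 (0.346).

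Farther along the gfi1ab side, tomm70a, of the mitochondrial import receptor, and tbc1d23 differed by -0.03 ± 0.08 and -0.21 ± 0.18 (SE, adjusted p = 0.874 and 0.555). tbc1d23 had the widest spread of the neighbours, with an SD of 0.36 in mutants and 0.14 in siblings, and was called only without mutant replicate 2. rpap2, whose start lies beside that of glmna so that their windows share most bases, differed by 0.02 ± 0.08 (adjusted p = 0.939).

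The nearest neighbour of any member was tsc1b, a tumour suppressor gene of the mTOR pathway, which starts 5.78 kb upstream of gfi1b and runs the other way. Its window does not overlap that of gfi1b. tsc1b had a level of 8.60 ± 0.17 in mutants and 8.62 ± 0.11 in siblings (SD, n = 3 each), and its difference was -0.01 ± 0.09 (SE, 95% interval -0.20 to 0.18, adjusted p = 0.959). The interval of gfi1b, 0.15 to 0.45, overlaps that of tsc1b slightly, and their difference from each other was not tested.

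**Figure D3:**
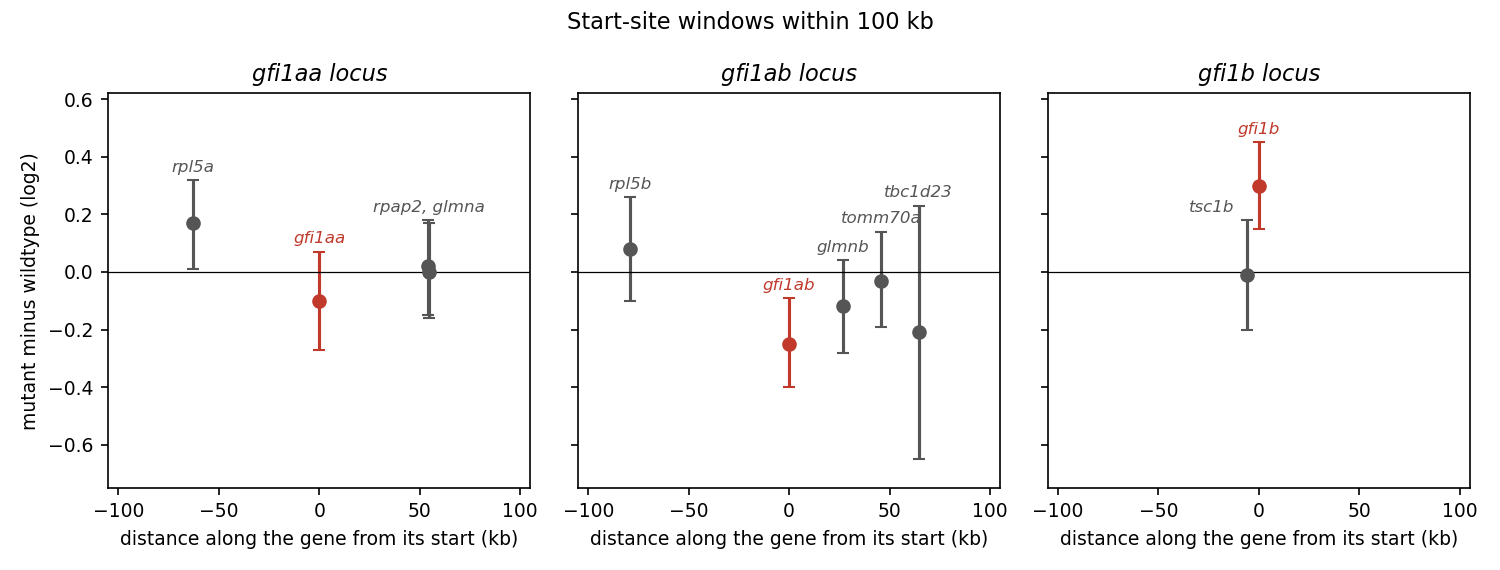
Difference of log2 signal, mutant minus wildtype (vertical axis, points with 95% intervals), of windows within 100 kb of each member, by distance along the member's direction of transcription in kb (horizontal axis, start at 0). The windows of gfi1ab (-0.25) and gfi1b (0.30) were called, and rpl5a (0.17, 0.01 to 0.32) has an interval clear of 0 without a call.

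Windows most like each member were found by the root mean square difference of log2 signal over the 12 libraries, as a description. Both groups enter this measure, so a like difference between groups is part of how the windows were picked. For gfi1b these were rcc1, a regulator of the Ran GTPase (0.0915), ccm2, of the vessel wall (0.0974), and si:ch1073-287p18.1 (0.103). rcc1 and ccm2 were also called higher (0.32 ± 0.07 and 0.23 ± 0.07, SE, adjusted p = 0.00954 and 0.0464). For gfi1ab the nearest were nme7 (0.0689), gtf2h4, of the general transcription factor TFIIH (0.0701), and zgc:172121 (0.0703). The windows of nme7 and zgc:172121 are nearly the same stretch of chromosome 6. They differed by -0.17 each and gtf2h4 by -0.16, without a call (adjusted p = 0.135, 0.144 and 0.158). For gfi1aa, snapc4 (0.0845), myo5b (0.0901) and mapk12a (0.0923) came nearest, with differences of -0.02, 0.01 and -0.02.

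The SNAG domain is shared with the Snail, Scratch and Insm repressors. Among these 9 relatives 2 rose and 1 fell, 6 failed the test, and the median difference was 0.02 against -0.02 over all tested windows. Over all tested windows 8.02% were called higher and 3.58% lower, and in a list of 9 genes 1 gene more or less moves a share by more than either. insm1b and insm1a, zinc-finger factors of neurons and endocrine cells, rose by 0.73 ± 0.09 and 0.56 ± 0.13 (SE, limma adjusted p = 2.3e-05 and 0.0178). Their log2 levels were 10.38 and 10.70 in mutants and 9.64 and 10.14 in siblings, all above that of gfi1b. How many windows at such levels were called was not counted, so these rises have no background of like level. scrt1b, a Scratch factor of neurons, fell by 0.30 ± 0.08 (adjusted p = 0.0177). The call of insm1a was lost under quantile and cyclic loess scaling (0.31 and 0.32, adjusted p = 0.266 and 0.307), and when mutant replicate 1 (0.0799), wildtype replicate 1 (0.0886) or wildtype replicate 3 (0.0689) was left out. That of scrt1b was lost without mutant replicate 2 (0.0635) or wildtype replicate 3 (0.111), and from technical repeat 2 alone (0.24). Both had no call with the slope covariate (adjusted p = 0.259 and 0.236).

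Of the corepressors through which Gfi1 proteins act, none of 10 measured genes passed the limma test, where 11.6% of all tested windows were called. Among the 10, 0 had an unadjusted limma p of 0.05 or less, and 0 were called with the replicate block. With that block 23.5% of all tested windows were called, 14.0% higher and 9.47% lower. A list of 10 is too short to be read against these shares. The differences of the 10 genes ran from -0.15 to 0.10 with a median of -0.02. kdm1a, which encodes Lsd1, lay at 8.86 ± 0.09 in mutants and 8.77 ± 0.03 in siblings (SD, n = 3 each), a difference of 0.10 with a 95% interval of -0.07 to 0.26 (limma adjusted p = 0.492). After cyclic loess scaling rcor2, a CoREST gene, and phf21aa were called lower (-0.30 and -0.28, adjusted p = 0.011 and 0.0181), and the median was -0.08. That scaling called 1719 or 11.1% of all tested windows, 1013 higher and 706 lower.

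Transcription factors that act beside or upstream of Gfi1 genes in blood gave 0 calls among 13 measured in limma. This held with and without the replicate block, where 23.5% and 11.6% of all tested windows were called. So short a list cannot be read against these shares. Of the 13, only ldb1a had an unadjusted limma p under 0.05 (difference 0.16, adjusted p = 0.197). The median difference of the list was -0.10, and 12 of 13 lay below 0, as did 54.7% of all tested windows. After cyclic loess scaling their median was -0.05, and 11 of 13 lay below 0, as did 51.7% of all tested windows. The mean level of the list was 7.24 to 7.30 over mutant replicates and 7.33 to 7.35 over sibling replicates. This level and those of the lists below were not corrected for library medians, which lay between 7.32 and 7.40. Gaps between groups in these levels were not tested. With library medians set equal, the median difference was -0.07 in this list and 0.01 over all tested windows. runx1, known in the mouse to activate Gfi1 in blood-forming endothelium, differed by -0.10 ± 0.08 (SE, 95% interval -0.26 to 0.06, adjusted p = 0.458). gata2b lay at -0.10 ± 0.08 (adjusted p = 0.484) and gata1a, the master factor of red cells, at -0.10 ± 0.07 (0.435). myb alone was called after cyclic loess scaling (-0.24, adjusted p = 0.0307), where 11.1% of all tested windows were called.

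Markers of the tissues in which the family is known were read beside it. In the red cell list 1 of 13 genes fell, against 3.58% of all tested windows, none rose and 12 did not pass, with a median of -0.09. In that list 11 of 13 differences lay below 0, as did 54.7% of all tested windows. After cyclic loess scaling the median was -0.04 and 9 of 13 lay below 0, as did 51.7% of all tested windows. nfe2, a factor of red cells and platelets, fell by 0.36 ± 0.08 (SE, adjusted p = 0.0044). With the replicate block, under which 9.47% of all windows were called lower, 3 fell, alas2 of heme synthesis and the globin gene hbae1 being the others (-0.22 and -0.21, adjusted p = 0.0105 and 0.0182). The mean level of the list was 6.52 to 6.70 over mutant replicates and 6.66 to 6.75 over sibling replicates. Of 9 genes of the vessel lining, 1 fell and 8 did not pass, where 3.58% of all tested windows were called lower. The 1 gene was cdh5, the endothelial cadherin, which fell by 0.31 ± 0.08 (adjusted p = 0.0151). List levels were 6.44 to 6.49 in mutants and 6.50 to 6.57 in siblings. cdh5 lost its call when wildtype replicate 3 was left out (0.0993), after quantile (0.0524) and cyclic loess (0.0536) scaling, from technical repeat 1 alone (0.119) and with the slope covariate (0.0787). Over the vessel list the median was -0.04 with 8 of 9 below 0, where 54.7% of all tested windows lay below 0. After cyclic loess scaling it was -0.02 with 5 of 9 below 0, where the share of all tested windows was 51.7%. The part of the red cell and vessel lists in the gfi1b result was not tested.

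Genes of hair cells and retinal ganglion cells, where gfi1ab is known, included 2 that fell. Of 9 measured, none rose and 7 did not pass, and all 9 differences were below 0, from -0.39 to -0.08 with a median of -0.19. Over all tested windows 3.58% were called lower, 54.7% lay below 0 and the median difference was -0.02. Among windows within 0.5 of the level of gfi1ab, 5.92% were called lower and the median difference was -0.05. otofa, the otoferlin gene of hair cell synapses, had 7.15 ± 0.07 in mutants and 7.54 ± 0.07 in siblings (SD, n = 3 each) and fell by 0.39 ± 0.08 (SE, adjusted p = 0.00242), a call lost only with the slope covariate (-0.31, adjusted p = 0.171) among the 18 other fits. pou4f3, a hair cell factor known in the mouse to act upstream of Gfi1, fell by 0.26 ± 0.08 (adjusted p = 0.0451). That call was lost under 11 of the 18 other fits, among them those without mutant replicates 2 or 3 (adjusted p = 0.186 and 0.0865) or wildtype replicates 1, 2 or 3 (0.0907, 0.154 and 0.113). atoh1a, the proneural gene of hair cells, differed by -0.08 ± 0.07 (adjusted p = 0.557).

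With the replicate block 4 of these 9 sensory genes fell, where 9.47% of all windows were called lower, atoh1b and pou4f2 being the others (-0.20 and -0.22, adjusted p = 0.0452 and 0.0191). After cyclic loess scaling, under which 11.1% of all tested windows were called, only otofa was called. All 9 were still below 0, as were 51.7% of all tested windows. The mean level of the list was 7.02 to 7.08 over mutant replicates and 7.22 to 7.24 over sibling replicates, and its part in the gfi1ab result was not tested.

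Genes that mouse or human work reports as repressed by Gfi1 or Gfi1b gave 3 that rose, none that fell and 10 that did not pass of 13 measured, with a median of -0.00, where 8.02% of all tested windows were called higher and 3.58% lower. The mean level of the list was 7.89 to 7.95 over mutant replicates and 7.84 to 7.87 over sibling replicates. socs3a was not tested, since its windows lay below the minimum mean log2 of 4. With the replicate block meis1b also rose (0.16, adjusted p = 0.0462) and socs1a fell (-0.24, 0.0133). That fit called 14.0% of all tested windows higher and 9.47% lower. id1, an inhibitor of bHLH factors, rose by 0.55 ± 0.08 (SE, adjusted p = 0.00034), baxa, which promotes cell death and is also a p53 target, by 0.52 ± 0.08 (0.00029) and id2a by 0.27 ± 0.07 (0.0199). Their log2 levels for id1, baxa and id2a were 11.17, 10.01 and 10.86 in mutants and 10.62, 9.50 and 10.59 in siblings, all above that of gfi1b. The share of windows called at such high levels was not counted. After cyclic loess scaling only baxa was called (0.35, adjusted p = 0.00189), id1 stood at 0.27 (0.122) and id2a at 0.01. That scaling called 11.1% of all tested windows. Under quantile scaling id2a turned to -0.02. It also had no call when mutant replicate 2 (0.0593), wildtype replicate 2 (0.0948) or wildtype replicate 3 (0.0803) was left out, from technical repeat 1 (0.225) or 2 (0.365) alone, with the slope covariate (0.0536) and with cyclic loess and the block (0.951).

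**Figure D4:**
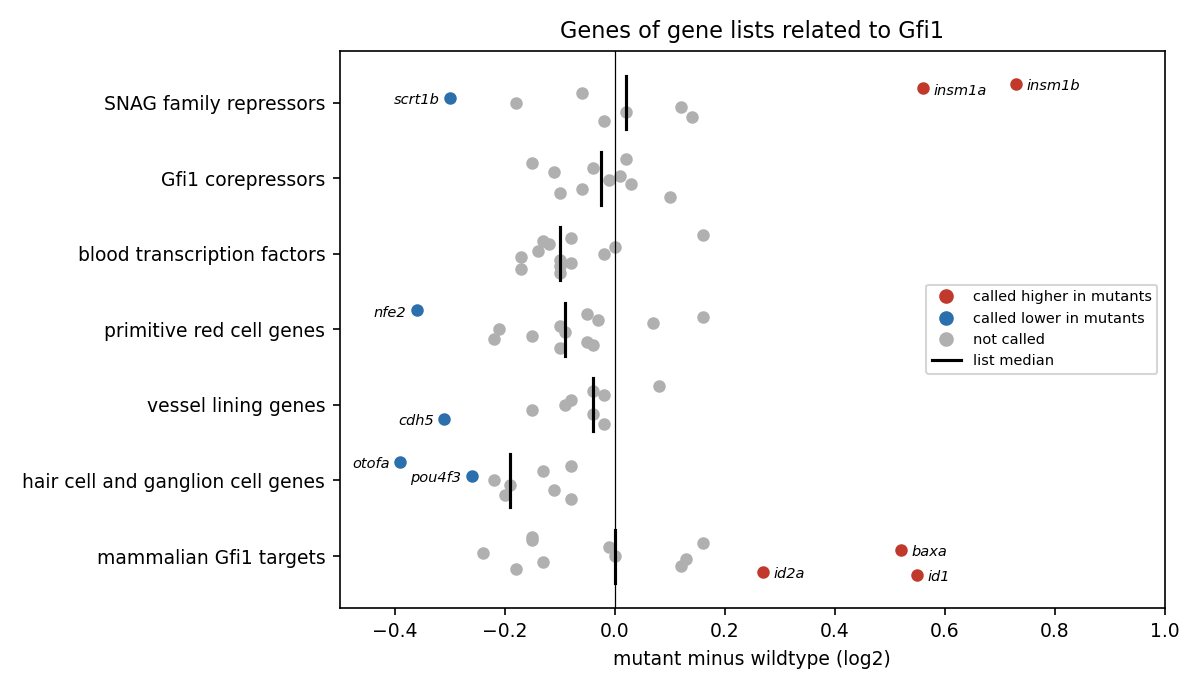
Difference of log2 signal, mutant minus wildtype (horizontal axis), of each measured gene (points) in 7 gene lists (rows), with the list median as a black bar. Genes called higher are red, those called lower blue and the others grey. All 9 hair cell and ganglion cell genes lie left of 0, where 54.7% of all tested windows (not drawn) also lay.

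Added to the reported fit, pairing by replicate number did not change any call of a member. With the block, limma adjusted p was 0.00255 for gfi1b, 0.00926 for gfi1ab and 0.277 for gfi1aa. With the block 23.5% of windows were called, so these values are read against a larger share of calls. The number of calls also fell by more than 1.5 times without mutant replicate 3 (1116) or wildtype replicates 1, 2 or 3 (1056, 1181 and 1134), against 1790 with all replicates. Of those 1790, 69.2% were higher in mutants, a share that was 80.5% with library medians set equal, 55.8% after quantile scaling and 58.9% after cyclic loess scaling. Under these same 3 scalings, without the block, gfi1b kept its call (0.33, 0.31 and 0.32) and gfi1ab had none (-0.22, -0.20 and -0.20). With cyclic loess and the block together, gfi1ab was called again (-0.20, limma adjusted p = 0.0322). That fit called 20.8% of all tested windows.

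**Figure D5:**
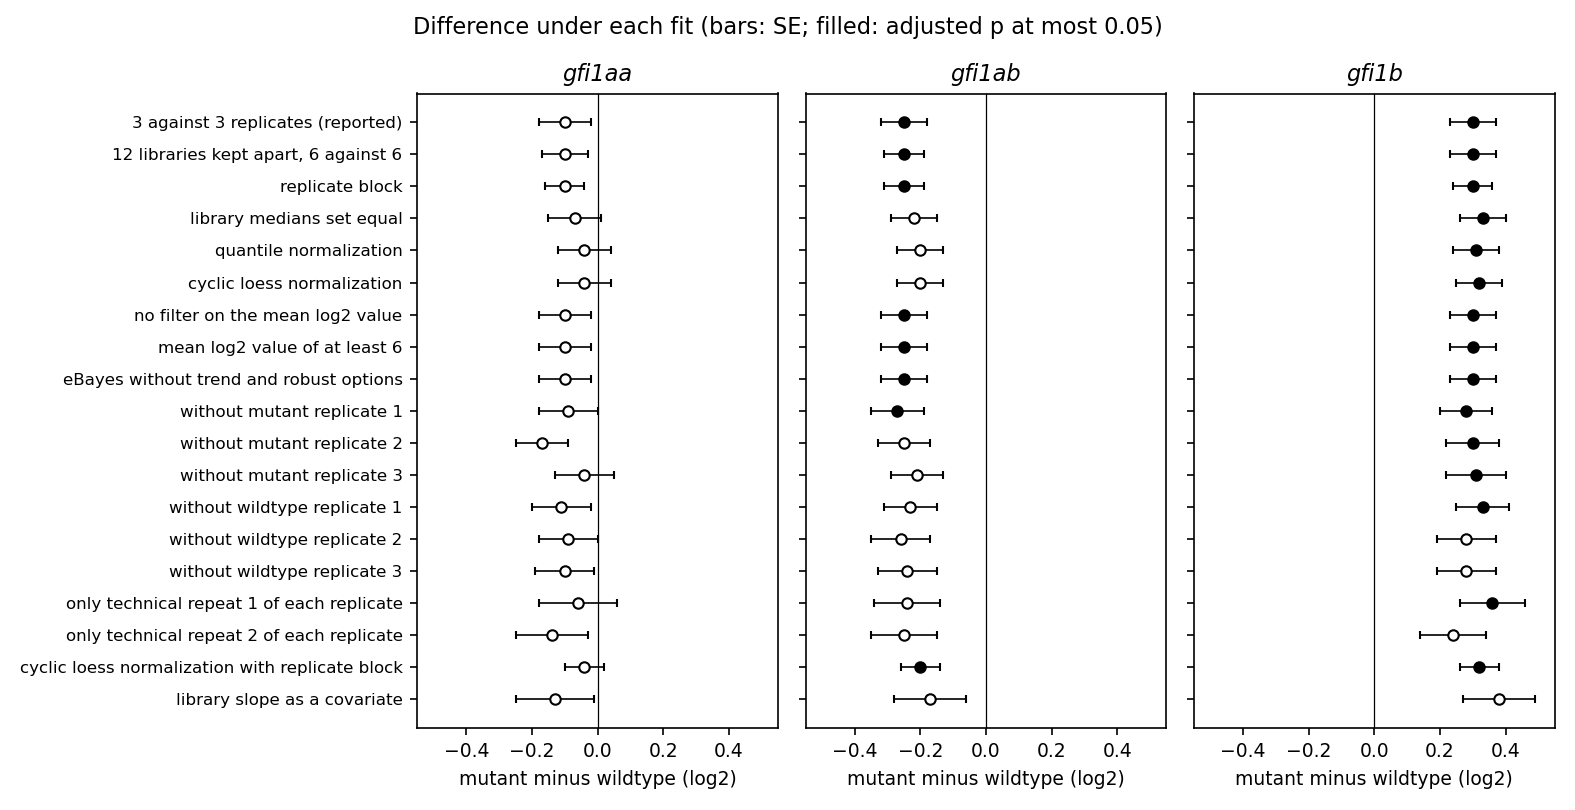
Difference of log2 signal, mutant minus wildtype (horizontal axis, points with SE bars), of the 3 members under the reported fit and 18 others (rows), filled where the adjusted p was 0.05 or less. gfi1b is filled in 15 of the 19 fits, gfi1ab in 8 and gfi1aa in none, and no point changes sides of 0.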

How the data were processed

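Per the file headers, the deposited table gives each library of each group a column named by group, biological and technical number, with normalized log2 values made by the authors by a transformation that is not named. It also holds the authors' log2 fold change, p-value and adjusted p-value, from a test that the file does not name. CASAVA 1.8, FastQC 0.11.2, HOMER 4.9 and GRCz10 (danRer10) are listed per the submitters' processing notes. The sources used here do not give the aligner, the read filters or any Tn5 shift. Column names match groups but no single labelled sample.

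The 16555 entries were collapsed to 15674 windows by position (collapsed values differed by at most 0.219). Of 567 unnamed entries, 548 were named through RefSeq accessions (GRCz12tu), and hbbe1 was read as its current name. The 15431 windows with a mean log2 of at least 4 were tested on means of technical pairs, 3 against 3, with limma 3.58.1 (R 4.3.3, trend and robust eBayes, Benjamini-Hochberg over all tested windows, threshold 0.05). The fit was checked on made-up data with known changes. Those data had independent noise of equal size at all windows, so the check does not cover paired replicates or noise that varies between windows. Nothing says that replicates came from separate clutches, so p-values measure the spread between these samples. Same-numbered mutant and sibling replicates deviated together (correlations over windows of 0.461, 0.513 and 0.534). Neither labels nor column names say what they share, so the reported fit is unpaired and replicate number was a block in another fit. Members, lists and tests were chosen with earlier results of these data known. Named were all members, windows within 100 kb, the 3 most alike windows per member, called list genes and 6 further list genes (runx1, gata1a, gata2b, kdm1a, atoh1a, pou4f3). Where a list gene had several windows, that with the highest mean was used. The lists are not separate sets, since gata1a and spi1b each stand in more than 1. Figures were drawn with matplotlib 3.10.9, and exact tests used scipy 1.17.1.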

Additional observations from a re-analysis of the deposited data

How the results depend on the processing

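The differences of gfi1aa (-0.17 to -0.04), gfi1ab (-0.27 to -0.17) and gfi1b (0.24 to 0.38) kept their signs under all 18 alternatives. The call of gfi1ab was lost with library medians set equal (-0.22), after quantile (-0.20) and cyclic loess (-0.20) normalization, from technical repeat 1 (-0.24) or 2 (-0.25) alone, and with the slope covariate (-0.17). Leaving out replicates gave -0.27 to -0.21 for gfi1ab, with 5 of 6 calls lost, and 0.28 to 0.33 for gfi1b, with 2 of 6 lost. The call of gfi1b was also lost from technical repeat 2 alone (0.24) and with the slope covariate (0.38). The causes of these losses were not tested. Calls over all windows numbered 3621 with the replicate block, 2969 with 12 libraries apart, 3208 with cyclic loess and the replicate block, 758 from technical repeat 2, 442 with the slope covariate, and 1056 to 2223 without 1 replicate. With libraries apart the paralog distances had smaller exact permutation p-values (0.54, -0.15 and 0.40, p = 0.00216, 0.0152 and 0.00433), though technical repeats are not independent. The corepressor median was -0.08 after cyclic loess normalization. The fits from 1 technical repeat, the slope covariate and cyclic loess with the block were added once the data had been seen. The unknown depth limits all values.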
